A study of Homo sapiens with 6 samples.

Results

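The metallothionein genes encode small cysteine-rich proteins that bind zinc, copper and cadmium. The members were the rows of the deposited table named MT1E, MT1F, MT1G, MT1M, MT1X and MT2A. Of these 6, 5 were found among 24480 genes, 3 passed the filter on low values (MT1E, MT1X and MT2A), and MT1F was not analysed here. RNA-seq had been run on LN229 cells, an established human glioblastoma line, in 3 libraries transduced with vector and 3 libraries with LACTB overexpression. LACTB is a mitochondrial protein related to bacterial beta-lactamases. All 6 libraries shared the parental line and differed, per the labels, in the transduced construct alone. The labels give no promoter, clone or time after transduction. Nor do they state separate cultures for replicates, and the p-values therefore reflect library-to-library spread that may be technical. In bulk RNA, fewer expressing cells and less RNA per cell cannot be told apart.

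Metallothioneins buffer free zinc and copper in the cell and take up heavy metals and oxidants through their cysteines. Their transcription is switched on by metals through the zinc-sensing factor MTF1, which binds metal response elements in their promoters, and by glucocorticoids and oxidative stress. MT2A and the MT1 genes are expressed in many tissues, brain and glioma among them, while MT3 is the form of neurons and astrocytes and MT4 that of stratified epithelia.

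The members lie in 1 cluster on chromosome 16 (GENCODE 29, GRCh38), which runs from MT4 to MT1X over 119.1 kb, at chr16:56565049-56684196. It holds 16 genes of the family, of which 11 are annotated as coding and 6 had a row in the table. MT2A lies at chr16:56608199-56609497, MT1E at chr16:56625475-56627112, MT1M at chr16:56632233-56633986 and MT1X at chr16:56682424-56684196, all on the plus strand. MT1G lies at chr16:56666731-56668065 on the minus strand.

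The coding sequences of the 3 members that could be tested are shown because they are alike. Each has 186 bases with the stop codon, taken from the GENCODE transcripts, and capitals mark the bases that differ from MT2A.
MT2A: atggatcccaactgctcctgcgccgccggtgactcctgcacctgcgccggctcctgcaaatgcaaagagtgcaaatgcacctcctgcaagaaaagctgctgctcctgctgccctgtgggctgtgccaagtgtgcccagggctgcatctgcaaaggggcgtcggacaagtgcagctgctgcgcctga
MT1X: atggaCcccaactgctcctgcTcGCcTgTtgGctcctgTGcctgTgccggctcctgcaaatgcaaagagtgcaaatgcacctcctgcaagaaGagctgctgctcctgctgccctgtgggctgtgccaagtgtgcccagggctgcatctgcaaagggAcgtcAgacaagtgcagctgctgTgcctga
MT1E: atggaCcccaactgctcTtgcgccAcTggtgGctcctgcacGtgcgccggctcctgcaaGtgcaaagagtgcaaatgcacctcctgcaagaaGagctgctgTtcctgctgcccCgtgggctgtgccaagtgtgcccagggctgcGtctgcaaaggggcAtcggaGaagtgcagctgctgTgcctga
MT1X and MT1E each differed from MT2A at 14 of 186 positions, an identity of 92.5%, and from each other at 17. In all 3, 20 of the 61 codons before the stop were TGC or TGT, the codons for cysteine. Over all pairs of the 6 listed genes, identity ran from 88.7% (MT1F and MT1X) to 95.2% (MT1G and MT2A). Whole coding transcripts, untranslated parts included, were compared by shared stretches. Of all stretches of 50 bases in the coding transcript, 4.9% in MT2A and 5.3% in MT1E also occurred in a transcript of another gene. The share was 20.2% in MT1G and 45.1% in MT1X. In MT1X, 117 of 401 such stretches lay in the annotated gene AC026461.1 and 47 in MT1G. MT1X shared 14 of them with MT2A, while MT1E shared none with MT2A or MT1X. Values of single members, above all MT1X, are therefore uncertain where the counting could split or discard shared reads.

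Metal response elements were searched because MTF1 acts on metallothionein genes through them. The core TGCACNC or TGCGCNC was looked for on both strands in the 250 bases before each RefSeq gene start (GRCh38.p14). Of the 6 listed genes, MT2A and MT1X matched the promoter table. The window of MT2A held 7 matches and that of MT1X 4, with no overlap between matches. At least 1 match occurred in 24.8% of 35116 windows of this length, at least 4 in 0.37% and at least 7 in 0.0313%. The family members MT1H, MT1B and MT4 held 8, 3 and 3. The stretch of MT1X before its first annotated start is printed with the matches in capitals (chr16:56682220-56682423, plus strand), followed by 30 bases of MT2A with 2 of its matches (chr16:56608408-56608437, plus strand), which lie inside the longer GENCODE transcript.
MT1X promoter: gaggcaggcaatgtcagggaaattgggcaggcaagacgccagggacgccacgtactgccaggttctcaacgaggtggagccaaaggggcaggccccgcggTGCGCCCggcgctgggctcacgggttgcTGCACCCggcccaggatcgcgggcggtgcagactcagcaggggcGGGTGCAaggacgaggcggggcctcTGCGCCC
MT2A promoter: cgcggcccGTGTGCAgagccgggTGCGCCC
A match describes these letters only and was not measured as bound.

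The values, as the authors deposited them, are taken here as normalized read counts, and how they were normalized is not given. Column totals were 38049107 to 41384269 in the vector libraries and 34907025 to 35683521 in the LACTB libraries. Depth in reads is unknown. LACTB itself held 458, 515 and 392.5 in vector and 4268, 4078 and 4203 in LACTB libraries, and rose in limma (adjusted p = 2.9e-14). Of 9 astrocyte and glioma markers, VIM, NES, S100B and CD44 were abundant, GFAP was low (74.5 ± 1.89 in vector and 122 ± 3.82 in LACTB cells), and AQP4 and ALDH1L1 did not pass the filter on low values. Of the 7 tested, 5 rose and S100B fell. Of 7 melanocyte markers 4 were tested and all 4 were lower with LACTB. Among the 3 not tested, TYR was at 0 in all LACTB libraries, TYRP1 was higher in every LACTB library (18.0 to 32.4) than in any vector library (0.0601 to 12.5), and MLANA overlapped. The summed level of the 7 was 48664 to 62480 in vector and 41269.9 to 43336 in LACTB libraries. SOX10 made up most of it, at 44692.5 to 59364 in vector and 40669 to 42672 in LACTB libraries. The log2 differences were -0.31 for SOX10, -1.49 for MITF, -1.91 for PMEL and -5.09 for DCT. Of 6 leukocyte markers only CD68 passed the filter, and AIF1 was at 0 in all vector libraries. Their summed level was 1047 to 1175 in vector and 1596 to 1698 in LACTB libraries. Of 4 endothelial markers 2 were tested and neither passed, with sums of 234 to 291 and 163 to 190.5. Among those not tested, KDR held 72.4, 79.8 and 57.6 in vector and 1.57, 1.55 and 11.45 in LACTB libraries, and CDH5 overlapped. Both tested epithelial markers of 5, the keratins KRT8 and KRT18, were lower, with sums of 5866 to 7174 and 2781 to 3263. Of 5 fibroblast markers 2 rose and 2 fell, with sums of 1038 to 1190 and 1608 to 1702. Among all tested genes 27.4% rose and 24.6% fell. The part of these markers in the metallothionein results was not tested.

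All 3 tested metallothionein genes were lower with LACTB, and none was higher. The fall was 1.80-fold for MT1E, 1.504-fold for MT1X and 1.27-fold for MT2A. For background, 24.6% of 12939 tested genes were called lower and 51.9% were called in either direction. Levels were compared as log2(value + 1) with limma, two-sided, with Benjamini-Hochberg adjustment over all tested genes and a threshold of 0.05. The median log2 difference of all tested genes was 0.05.

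Under other scalings the background moved. Lower calls made up 47.3% of all calls as reported, 27.8% with equal column totals and 60.7% with median centring. With equal column totals 53.2% of tested genes were called, 38.4% higher and 14.8% lower. With median centring 52.8% were called, 20.7% higher and 32.1% lower. With quantile normalization 50.3% were called, 24.8% higher and 25.5% lower. With a trend on transcript length and GC content removed 48.4% of 12710 genes were called, 27.0% higher and 21.4% lower. When the members' coding transcripts set their length, the shares were 48.4%, 26.9% and 21.4%.

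MT2A, the most abundant member, carried nearly all of the family's signal. Its vector libraries held 36799, 39531 and 49964 normalized counts and its LACTB libraries 34269, 31517 and 33080. All 3 LACTB values lay below the lowest vector value, as for 28.7% of tested genes, but by a small margin. Vector library 3 stood well above the other 2. The means were 42098 ± 6947 and 32955 ± 1380 (SD, n = 3 each). LACTB minus vector came to -0.34 on the log2 scale (SE 0.12, 95% interval -0.60 to -0.08, limma adjusted p = 0.025). Among all rows of the table MT2A ranked 117 by mean level in vector cells and 108 in LACTB cells. Its call did not hold without vector library 3 (-0.21, limma adjusted p = 0.14), LACTB library 2 (-0.31, adjusted p = 0.11) or LACTB library 3 (-0.34, adjusted p = 0.077). It was also lost with equal column totals (-0.15, adjusted p = 0.26), and the direction turned with quantile normalization (0.10, adjusted p = 0.43). As a share of its column MT2A took 0.0892%, 0.104% and 0.121% in vector and 0.0960%, 0.0903% and 0.0945% in LACTB libraries, so the groups overlapped.

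MT1X, the most abundant MT1 gene here, was lower in every LACTB library. Vector libraries held 1234, 1282 and 1387 normalized counts and LACTB libraries 975, 787 and 840. The groups did not overlap, as for 28.7% of tested genes in this direction. The means were 1301 ± 78.4 and 867.5 ± 97.0, a log2 difference of -0.59 (SE 0.13, 95% interval -0.86 to -0.32, limma adjusted p = 0.00071). As a share of the column it took 0.00299% to 0.00337% in vector and 0.00225% to 0.00273% in LACTB libraries, again without overlap, as for 18.9% of tested genes.

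MT1E fell most among the members. Its vector libraries held 929, 921 and 1000.5 normalized counts and its LACTB libraries 547, 499 and 540. The highest LACTB value was far below the lowest vector value, and libraries within a group lay close together. Groups without overlap in this direction were found for 28.7% of tested genes. The means were 950 ± 43.6 and 529 ± 26.02, a log2 difference of -0.84 (SE 0.14, 95% interval -1.13 to -0.56, limma adjusted p = 2.7e-05). Of all tested genes, 6.46% had a lower log2 difference than MT1E, 12.9% than MT1X and 25.0% than MT2A.

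**Figure D1:**
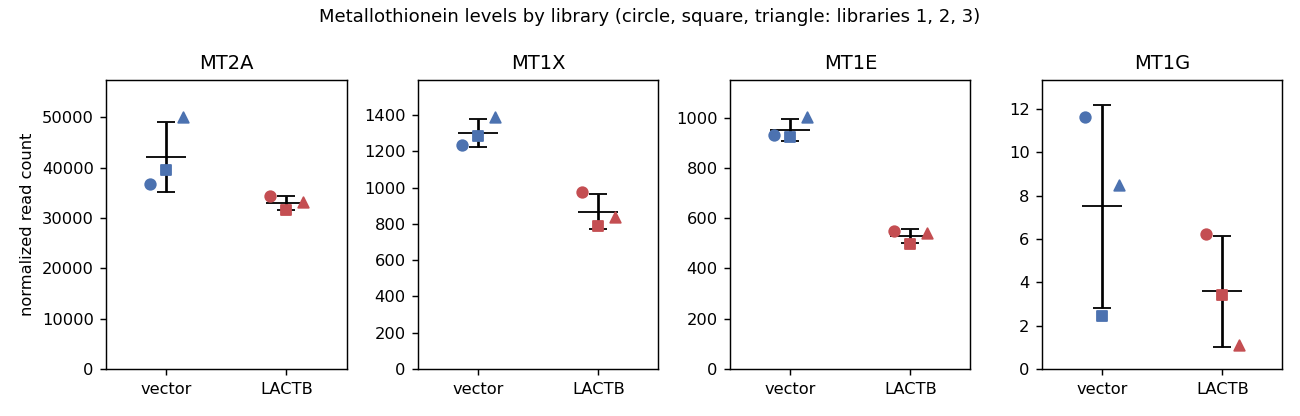
Normalized read counts (y axis, linear, from 0, scaled by gene) of MT2A, MT1X, MT1E and MT1G in each vector and LACTB library. Points are libraries, bars the mean ± SD of 3. MT1E and MT1X are separated between groups, MT2A narrowly so, and MT1G overlaps.

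MT1G and MT1M were close to the bottom of the scale and did not pass the filter of 37.72 normalized counts. MT1G, an isoform often silenced in tumours, stood at 11.6, 2.42 and 8.49 in vector and 6.24, 3.43 and 1.12 in LACTB libraries, with overlapping groups. MT1M was at 2.09, 0.0182 and 0.0107 in vector libraries and at 0 in all 3 LACTB libraries. With no filter neither was called (limma adjusted p = 0.48 for MT1G and 0.60 for MT1M), and neither level allows a fold change to be read. Of 15 other family members and pseudogenes sought, MT3 and MT1HL1 had rows. MT3 was at 2.15 in vector library 2, under 0.02 in the other vector libraries and at 0 with LACTB. MT1HL1, a copy on chromosome 1, ranged from 0 to 4.17 over the 6 libraries.

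Per kilobase of coding transcript, a scale that allows levels of different genes to be set side by side, MT2A had 53559.9 ± 8839 normalized counts in vector cells, MT1X 2892 ± 174 and MT1E 1350 ± 61.9. The order was the same in LACTB cells, at 41928 ± 1756, 1928 ± 216 and 751 ± 37.0. Neighbours in this order differed by more than their spread in both groups. RefSeq places the start of MT2A 385 bases inside the GENCODE transcript, so its value per kilobase may be too low.

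Because the copies are alike in coding sequence, they were also summed per library. The 5 members together held 38977, 41738 and 52360 normalized counts in vector and 35798, 32806 and 34462 in LACTB libraries. The sum did not overlap between groups, as was the case for 28.7% of single tested genes in this direction. Its mean was 22.6% lower with LACTB, a log2 ratio of -0.37. That ratio was -0.23 without vector library 3, -0.18 with equal column totals and 0.05 with quantile normalization. No test was made of the sum. Its share of the column did overlap, at 0.0944% to 0.127% in vector and 0.0940% to 0.1003% in LACTB libraries. The 3 MT1 members alone summed to 2177, 2206 and 2396.5 in vector and 1529, 1290 and 1381 in LACTB libraries, a mean lower by 38.1%. In counts most of the difference in the total lay in MT2A, while the MT1 sum was lower by a larger fraction.

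The makeup of the family's signal was compared by ratios within each library, which a single factor per library leaves as they are. For every 100 counts of MT2A there were 2.53, 2.33 and 2.00 of MT1E in vector and 1.60, 1.58 and 1.63 in LACTB libraries. The groups did not overlap, and the LACTB libraries agreed closely. The ratio averaged 2.29 ± 0.264 and 1.60 ± 0.0259, a log2 difference of -0.50. For every 100 counts of MT1X there were 75.3, 71.8 and 72.1 of MT1E in vector and 56.1, 63.4 and 64.3 in LACTB libraries, also without overlap. MT1X per 100 MT2A overlapped, at 2.78 to 3.35 and 2.50 to 2.85. Exact two-sided permutation tests gave p = 0.10, 0.10 and 0.20 (adjusted over the 3 pairs 0.15, 0.15 and 0.20). With 3 against 3 libraries the smallest p possible is 0.10, so none could pass. Settings that adjust genes unequally also moved the members against each other. With quantile normalization MT1E stood at -0.99 and MT2A at 0.10. After removal of the length and GC trend on the coding transcript, MT1E and MT1X stood close together, at -0.37 and -0.33. MT2A made up 94.4% to 95.4% of the sum in vector and 95.7% to 96.1% in LACTB libraries.

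**Figure D2:**
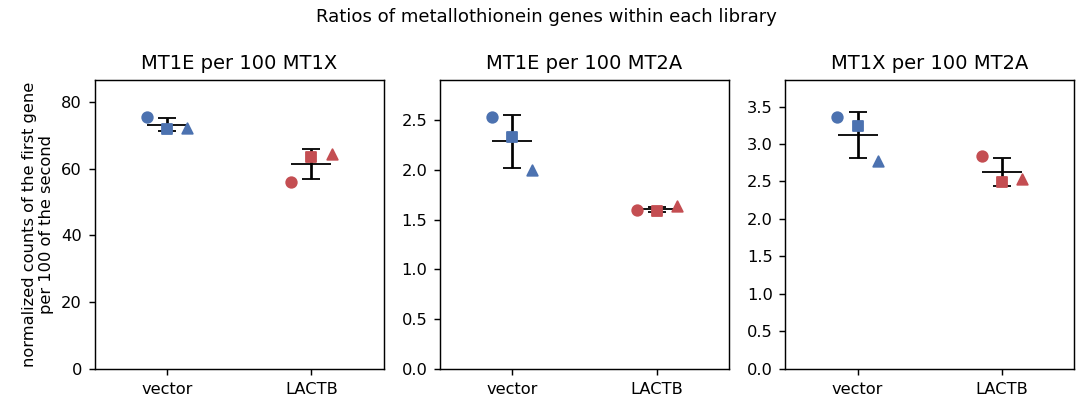
Normalized counts of one metallothionein gene per 100 of another (y axis, linear, from 0) in each library. Points are libraries 1 (circle), 2 (square) and 3 (triangle), bars the mean ± SD of 3. Both ratios with MT1E on top are separated between groups, and MT1X per 100 MT2A overlaps.

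Differences across the table followed transcript length, and metallothionein transcripts are short. The longest transcripts of MT1E, MT2A and MT1X have 729, 903 and 1727 bases, all among the 2542 tested genes with the shortest transcripts (93 to 2085 bases), whose median log2 difference was -0.27. The 2542 with the longest had a median of 0.46. With a smooth trend on length and GC content removed from every library, MT1E remained lower (-0.47, limma adjusted p = 0.0016), MT1X no longer passed (-0.22, adjusted p = 0.11) and MT2A stood at 0.06 (adjusted p = 0.66). With the coding transcript as the length of each member, an alternative added after seeing the data, the values were -0.37 for MT1E (adjusted p = 0.0055), -0.33 for MT1X (adjusted p = 0.013) and 0.20 for MT2A (adjusted p = 0.07). MT1E alone was called lower under every setting tried, with limma adjusted p from 2.4e-07 to 0.0055.

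**Figure D3:**
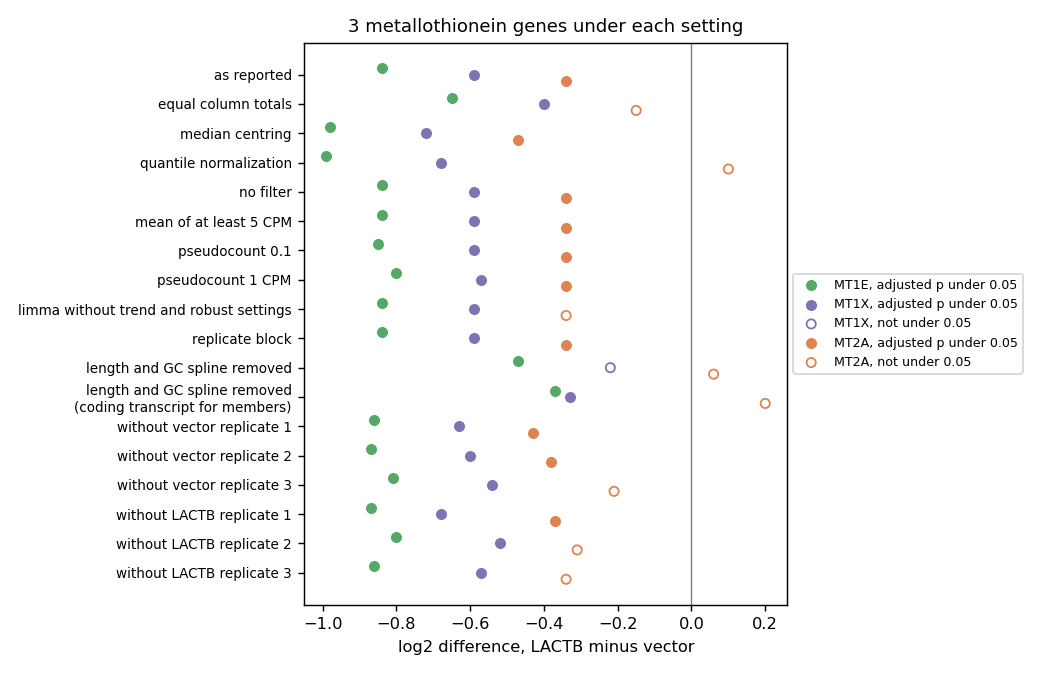
Log2 difference, LACTB minus vector (x axis), of MT1E, MT1X and MT2A under each processing setting (rows). Filled points passed an adjusted p of 0.05 and open points did not. MT1E lies between -0.99 and -0.37 and is filled in all rows, MT1X is open in 1, and MT2A is open in 8.

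MTF1, the zinc-sensing transcription factor that activates metallothionein genes, moved the opposite way. It held 546, 630 and 573 normalized counts in vector and 817, 931 and 990 in LACTB libraries. The groups did not overlap, as for 31.1% of tested genes in this direction. MTF1 rose by 0.64 on the log2 scale (SE 0.14, limma adjusted p = 0.00061). It stayed higher after the length and GC trend was removed (0.33, adjusted p = 0.019). SLC30A1, the plasma membrane zinc exporter and a classical MTF1 target, held 343, 616 and 575 in vector and 622, 670 and 621 in LACTB libraries. The lowest LACTB value lay just above the highest vector value. The difference of 0.36 did not pass (adjusted p = 0.099), and it was 0.10 without vector library 1 and -0.07 after the length and GC trend was removed. It passed with equal column totals (0.56, adjusted p = 0.033), without vector library 2 (0.52, adjusted p = 0.045) and in the fit blocked on replicate number (adjusted p = 0.045). Over all tested genes 27.4% were called higher and 24.6% lower. The list labelled metal-responsive transcription holds MTF1, SLC30A1 and other genes, and whether each responds to metal here was not tested. Of its 7 genes 3 rose (MTF1, MTF2 and SP1) and 2 fell. Only 1 rose without vector library 3 or without LACTB library 2, with median centring or after removal of the length and GC trend (median -0.06 against 0.36), and 5 rose with equal column totals. The falling members were SELENOH, a nuclear selenoprotein, by 0.53 and the LIM-domain gene CSRP1 by 0.45 on the log2 scale. SELENOH stood at -0.18 once length and GC were taken out and at -0.33 with equal column totals, where CSRP1 stood at -0.26. Quantile normalization removed the CSRP1 call (-0.01, adjusted p = 0.92).

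Zinc exporters of the SLC30 family, most of which move zinc out of the cytosol, were mostly higher. Of 10 listed 7 were tested, and 6 rose while none fell, with a median log2 difference of 0.49. For background, 27.4% of tested genes were called higher. SLC30A6, which acts in the Golgi with SLC30A5, rose from 422 ± 59.4 to 650 ± 68.1, a log2 difference of 0.63 (limma adjusted p = 0.0022). SLC30A4 rose by 0.59 (adjusted p = 0.012) and SLC30A9, a mitochondrial zinc transporter, by 0.49 (adjusted p = 0.006). SLC30A2, SLC30A5 and SLC30A7 were the other 3. The count depended on the processing. With length and GC removed 1 of 7 was called higher and the median was 0.01 (SLC30A6 0.22, adjusted p = 0.067), with median centring 3, and with quantile normalization 2. Without LACTB library 2 it was 1, without LACTB library 3 it was 3, without vector library 1, vector library 3 or LACTB library 1 it was 4, and with no filter 3. SLC30A4 and SLC30A9 also missed the threshold without LACTB library 2 (adjusted p = 0.081 and 0.071).

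Zinc importers of the SLC39 family went both ways. Of 14 listed 11 were tested, 2 rose and 3 fell (median 0.04), SLC39A8 and SLC39A1 among them. The shares over all tested genes were 27.4% higher and 24.6% lower. SLC39A14, which imports zinc, iron and manganese, held 2643, 3216 and 2758 in vector and 5409, 5186 and 5361 in LACTB libraries. It rose by 0.89 (SE 0.11, limma adjusted p = 1.2e-06). SLC39A4, the intestinal zinc importer, fell from 617 ± 44.0 to 368 ± 24.9, a log2 difference of -0.74 (adjusted p = 0.00035), or -0.46 without the length and GC trend. SLC39A13, a zinc transporter of the secretory pathway, fell by 0.42 (adjusted p = 0.0059), a call not reached at equal column totals (adjusted p = 0.11) or after removal of the length and GC trend (-0.08, adjusted p = 0.39). Equal column totals gave 4 rises and 1 fall, median centring 2 and 5, quantile normalization 1 and 3, and length and GC removal 3 and 1. There was 1 rise without LACTB library 1, and there were 2 falls without LACTB library 2 or 3.

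**Figure D4:**
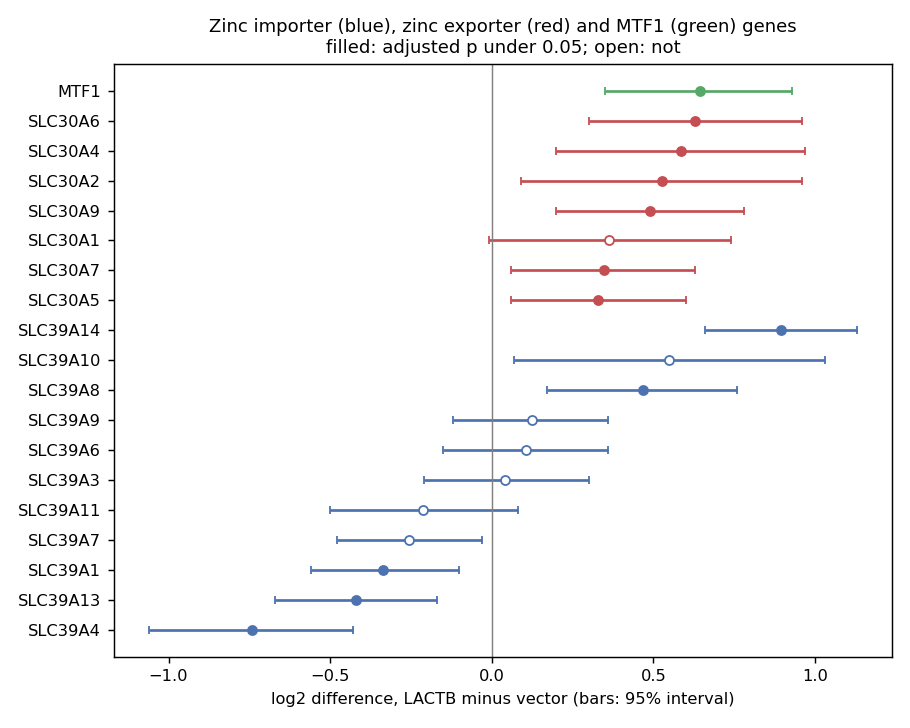
Log2 difference, LACTB minus vector (x axis), with its 95% interval for tested zinc importers (blue), zinc exporters (red) and MTF1 (green). Filled points passed an adjusted p of 0.05. All 7 exporters lie above 0, from 0.33 to 0.63, and the importers run from -0.74 to 0.89.

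Copper genes were included because metallothioneins also bind copper. Of 11 tested 3 fell and 1, the copper exporter gene ATP7A, rose (median -0.23). Over all tested genes 24.6% were called lower and 27.4% higher, the background for the copper and iron lists. SOD1, the copper-zinc superoxide dismutase, fell from 14742 ± 2716 to 6911 ± 278, a log2 difference of -1.08 (limma adjusted p = 3.9e-07). CCS, the chaperone that loads copper into SOD1, fell by 1.01 (adjusted p = 2.0e-06), and COX17, which carries copper to cytochrome oxidase, by 0.65 (adjusted p = 0.00018). Without the length and GC trend SOD1 stood at -0.71 and CCS at -0.47. With length and GC removed 6 fell and 2 rose, and with median centring 6 fell. Iron genes rose in 3 of 8 tested cases and fell in 1, with the transferrin receptor gene TFRC as the third to rise. The iron-sensing ubiquitin ligase gene FBXL5 rose by 0.73 and IREB2, an iron regulatory protein, by 0.60, and the heme oxygenase gene HMOX2 fell by 0.71. IREB2 was not called with length and GC removed (adjusted p = 0.32). HMOX2 moved to -0.33 in that setting, where 3 iron genes rose and 3 fell (median 0.05). In that list 6 rose with equal column totals and 5 with quantile normalization.

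Other known inducers of metallothionein genes were mixed. As background for each list below, 27.4% of all tested genes were called higher and 24.6% lower. NR3C1, the glucocorticoid receptor, rose from 629 ± 154 to 1193 ± 182, a log2 difference of 0.94 (limma adjusted p = 9.1e-05), or 0.41 once the length and GC trend was taken out (adjusted p = 0.03). In the list of the receptor and its targets 2 of 8 tested genes rose and 3 fell (median -0.26). TSC22D3, a classical glucocorticoid target, fell by 0.93 the kinase gene SGK1 by 0.82 and DUSP1, a phosphatase gene, by 0.71, while CRISPLD2 rose by 1.48. Without vector library 1 there were 5 falls. In the list of NRF2, the oxidative stress factor, and its targets 3 of 9 rose and 1, NQO1, fell. The cystine transporter gene SLC7A11 rose by 1.93, GCLM, a subunit of the enzyme that starts glutathione synthesis, by 1.10 and NFE2L2 itself by 0.69. That list numbered 6 higher and 0 lower with equal column totals, and 3 and 0 without LACTB library 1, and 5 and 1 without the length and GC trend, where GCLM stood at 0.71. Heat shock genes, which heavy metals also induce, fell in 4 of 8 cases and rose in none. HSPA1A fell by 0.78, HSPA1B by 0.71 and HSPA6 by 0.72, and HSF1 was the fourth. HSPA1A and HSPA1B are near-identical copies whose values are uncertain. With equal column totals 2 heat shock genes fell, and with length and GC removed 3 fell and 2 rose, HSPA1A standing at -0.39 and HSPA1B at -0.34. HSPA6 missed the threshold if vector library 2 was left out (adjusted p = 0.073), at equal column totals (0.071) and after removal of the length and GC trend (adjusted p = 0.26).

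Genes next to the cluster were described to show what its surroundings did. NUP93, a nuclear pore gene 45.9 kb after the cluster, held 5492, 5034 and 5510 in vector and 3628, 3427 and 3315 in LACTB libraries. It fell by 0.63 (limma adjusted p = 5.9e-05), or by 0.95 without the length and GC trend. On the other side BBS2, a cilium gene 44.8 kb away, stood at 1171 ± 150 and 1287 ± 69.1, a difference of 0.14 (adjusted p = 0.37), and -0.28 after removal of the length and GC trend (adjusted p = 0.015). Farther after the cluster, CPNE2 fell by 0.61 and FAM192A by 0.37, the last not called with equal column totals (adjusted p = 0.17). HERPUD1 (-0.02) and NLRC5 (-0.29), which also lie after it, did not pass. Whether a change over the whole region took part in the metallothionein values was not tested.

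The genes whose log2 values followed the summed members most closely over the 6 libraries were DDX54 (Pearson r = 0.998), EGLN2 (0.998), SLC27A4 (0.997), PPP1R12C (0.996) and SH3GL1 (0.995). These 6 points share their libraries and form 2 groups, and 866 of 12936 genes outside the family (6.69%) had an r of at least 0.9. DDX54, an RNA helicase gene, held 3889, 4277 and 5238.5 in vector and 3654, 3342.5 and 3493.5 in LACTB libraries. EGLN2, an oxygen-sensing prolyl hydroxylase, held 3570.5, 3674 and 4557 in vector and 3277, 3060 and 3179 in LACTB libraries. In both, as in MT2A, vector library 3 was the highest and LACTB library 2 the lowest.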

How the data were processed

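RNA-seq of 6 LN229 libraries was analysed. Per the labels' protocols, Trizol and chloroform served for RNA extraction and NEB reagents for library construction. HISAT2 and hg38 were used, per the submitters' processing notes. How reads were counted, annotated, stranded and normalized is not given in the sources used here. In all, there are 24489 rows in the deposited table, holding signal values, taken here as normalized read counts by the authors. Values below 1e-10 were set to 0, and of 9 repeated symbols the row with the higher mean was kept. The best single step left 34.1% to 58.5% of low values whole (tolerance 0.05, 10% by chance), so no count model was used.

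The filter kept genes averaging 1 CPM (37.72 normalized counts) or more. They were tested as log2(value + 1), which understates the change of low genes. R 4.3.3 ran limma 3.58.1 with group as the only term and its trend and robust options on. The design foresaw counts or values scaled to library size, and its branch for normalized values was used. Length and GC were those of the longest GENCODE 29 transcript. The fit was tested on simulated data. Exact permutation tests used scipy 1.17.1, and figures matplotlib 3.10.9.

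The members and lists were chosen with earlier results of these data known. Named genes were LACTB, the members, other metallothionein rows, MTF1, SLC30A1, NR3C1, 3 genes per list with the smallest adjusted p, the nearest tested genes around the cluster (not all are reported here), and the 5 most correlated genes. MTF2, SP1, SLC30A2, SLC30A5, SLC30A7, SLC39A8, SLC39A1, ATP7A, TFRC, DUSP1, NQO1, HSF1 and some markers fall outside that rule and were named after their values were seen. Alternatives were 3 scalings, 2 filters, 2 pseudocounts (0.1 and 1 CPM), limma without trend, the replicate block, removal of length and GC, and leaving out each library.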

Additional observations from a re-analysis of the deposited data

How the results depend on the processing

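Of the 3 members called lower, 1 (MT1E) remained called with length and GC removed, and 2 or 3 when any library was left out. No member was called higher under any setting. The summed metallothioneins had a log2 ratio of 0.05 with quantile normalization, against -0.45 to -0.23 when a library was left out. MT2A turned to 0.10 with quantile normalization, 0.06 with length and GC removed and 0.20 with the coding transcript used, and lost its call without trend and robust settings (limma adjusted p = 0.077). With length and GC removed, under both choices of transcript, BBS2 stood at -0.28, NUDT21 at -0.21 and SH3GL1 at 0.15. The cause was not tested. Over all genes 3544 were higher and 3177 lower (47.3% lower), and 4974 and 1913 with equal column totals, which moved the median of all genes from 0.05 to 0.24, or 2684 and 4148 with median centring. Same-numbered libraries correlated at 0.023, 0.182 and 0.003 in their deviations, and other pairs at -0.193 to 0.161. So few libraries cannot show whether the numbers pair them. With the replicate block 3 members were lower, with 3673 for genes higher and 3206 for genes lower, and MT1E had an adjusted p of 2.4e-07. Adding MT3 and MT1HL1 left the summed ratio at -0.37. Low levels limit MT1G, MT1M, MT3 and MT1HL1, and 3 libraries per group limit every p-value.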
